A study of Sus scrofa with 80 samples.

Results

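The comparison set 3 regions of the brain (cerebellum, hypothalamus and cerebral cortex) against 4 organs outside the nervous system (liver, kidney, spleen and bone marrow) of the Göttingen minipig, a small breed of pig. The samples were chosen by the tissue and age in their labels. The brain side held 24 samples and the organ side 32, together 56 of the 80 arrays of the series. Every one of the 7 tissues had a sample from a male and one from a female at each of 4 ages, namely 1 week and 4 weeks after birth and then 2 months and 4 months. The animals came from 1 commercial breeder and had been given no treatment. Whole pieces of tissue were extracted, so fewer cells of a type and less RNA per cell could not be told apart. The study's methods name fewer animals than samples, so tissues shared animals, but the labels did not tie these 56 samples to animals. The tests measured the spread among the 8 samples of a tissue, which differed in age and sex.

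The brain is built from neurons, which signal at synapses, and from glia, which insulate axons, take up transmitter and provide immune defence. A presynaptic terminal releases glutamate, gamma-aminobutyric acid (GABA) or glycine from vesicles, and receptors and voltage-gated channels of the next cell answer. The blood-brain barrier keeps most leukocytes out of the tissue, and the forebrain and cerebellum arise in front of the body segments that the HOX genes pattern. Many housekeeping enzymes, motors and pumps exist as families of paralogs in which 1 member is known to be enriched in nerve cells.

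RNA was hybridized to one-color custom Agilent arrays with 61289 gene spots each, and values are given as background-corrected, quantile-normalized log2 intensity, averaged over the probes of a gene. The tests covered 23722 genes. Between 60.5% and 67.9% of the genes had a probe well above background on a brain array and between 57.7% and 69.7% on an organ array, so the 2 sides overlapped in the share of genes detected. The 56 arrays lay on 9 slides, each with brain and organ samples. A probe's brightness depends on its sequence, so levels were compared between tissues and never between genes.

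Brain and organs differed in 3171 genes that were higher in the brain regions and 3217 that were lower. A gene was called when the mean of the 3 regions and the mean of the 4 organs differed at least 2-fold with a Benjamini-Hochberg adjusted p below 0.05 in limma. These were 13.4% and 13.6% of the genes tested, close to equal in number, and the median difference over all genes was -0.115 log2 units. The balance was different when a gene had to pass in all 12 contrasts of 1 region with 1 organ. By that rule 1272 genes (5.36%) were higher and 462 (1.95%) lower in the brain regions. All 24 brain samples lay above all 32 organ samples in 1387 genes (5.85%) and below them in 479 (2.02%). Kidney was the organ with the fewest genes called in single contrasts, between 3006 and 3113 higher and between 2825 and 3162 lower in a region. Without kidney, the genes lower in every remaining contrast numbered 824 instead of 462.

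A gene was counted as on in a tissue when the same probe of it was flagged well above background by the scanner software on all 8 arrays, and as absent when none of its probes was flagged on any array. By this rule 139 genes (0.586% of those tested) were on in all 3 brain regions and absent in the 4 organs, and are called brain-only genes below. In the other direction 18 genes (0.0759%) were on in the 4 organs and absent in all 3 regions. The brain regions shared 12320 genes that were on in all 24 arrays, and the organs shared 10405 that were on in all 32. Since the sets were chosen on this very contrast, their differences are described without a test. Just outside the rule, 62 genes were on in all brain arrays and in 1 organ array, and 41 in 2. Allowing 1 exception per tissue gave 268 brain-only and 42 organ-only genes. Another rule took the 95th percentile of the negative controls as the limit for the value of a gene, for on and for absent alike. By it 45 genes were brain-only and 7 organ-only. Of these, 22 were among the 139 and 1 among the 18, and the others were not in the sets above.

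The largest bounds in the brain-only set, 800-fold and 651-fold, belonged to 2 transcripts without a symbol, and the genes described here are members with a symbol. INA, the neurofilament protein alpha-internexin, had a lowest, median and highest value of 11.07, 11.89 and 12.66 over the 24 brain samples and of 1.59, 2.77 and 3.46 over the 32 organ samples. That was at least 536-fold higher. An undetected value was counted at the brighter of its own signal and the lowest signal well above background on its array. That lowest signal lay between 0.162 and 2.795 log2 units, so brighter undetected values counted at their own signal. Folds given as bounds or with at least rest on this count and this normalization, and are not strict lower limits. SULT4A1, a sulfotransferase of neurons, lay between 9.56 and 11.88 in brain and between 1.39 and 2.84 in the organs, at least 350-fold higher. No brain sample of either gene came near an organ sample. Among other members SCG2 (secretogranin II, of dense-core vesicles) was at least 241-fold higher and the potassium channel gene KCNA1 at least 201-fold. The smallest bound in the set was 1.66-fold and the median bound was 14.3-fold.

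Of the 139 genes, 69 carried a gene symbol and the others only an accession or a transcript name. Of the gene lists described below, the set held 5 of 24 measured genes of GABA and glycine transmission, 3 of 29 of glutamate receptors and their scaffolds, 5 of 21 of the neuronal cytoskeleton and 2 of 24 of neuronal RNA-binding proteins and transcription factors. The set also held 3 of 29 of synaptic vesicles and release, 2 of 29 of neuronal adhesion and 1 of 30 of voltage-gated channels. It held none of the astrocyte, the myelin and oligodendrocyte or the microglia list, each with 18 measured genes. All these counts stand beside 0.586% of all genes, a share at which a list of 18 genes can be expected to hold none. The lack of glial list members therefore does not set those lists apart from other genes. The following members are examples of known functions, chosen after their values were seen. GAD1 and GAD2, which make GABA from glutamate, were at least 23.9-fold and 72.1-fold higher in the brain regions. SLC32A1, the transporter that loads GABA and glycine into vesicles, was at least 173-fold higher. The glycine receptor subunit gene GLRA2 was at least 29.6-fold higher, with organ values of 2.49 ± 0.39 (SD, n = 32) log2 units. On the glutamate side the set held the vesicular transporter SLC17A6, the uptake transporter SLC1A6, the receptors GRM3 and GRID1, and CACNG2, which carries AMPA receptors to the synapse and was at least 101-fold higher.

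Cytoskeletal members were NEFM and NEFL, the medium and light neurofilament chains, with bounds of 130-fold and 12.3-fold, MAP2 of dendritic microtubules with 111-fold, and the tubulin gene TUBB2B with 7.54-fold. Several members encode transcription factors known from neural development. POU3F2 was at least 40.3-fold higher, RFX4 35.2-fold, ZIC1 29.3-fold, INSM1 25.2-fold, ZIC5 22-fold and NKX2-2 10.7-fold. Outside the glial lists the set held BCAN (brevican, a proteoglycan of the brain matrix) with 17.1-fold. It also held RLBP1 (a retinaldehyde-binding protein, known from glia of the retina) with 125-fold. The set also held genes known from most cell types. PDXK, the kinase that makes active vitamin B6, was at least 5.19-fold higher, SPATA5 3-fold (0.60 log2 units, under the 2-fold limit, with an offset of 50 added before the logarithm) and NDUFA10, a subunit of respiratory complex I, 2.55-fold. NDUFA10 reached 4.33 in the organs and started at 4.14 in brain, so its samples overlapped although the scanner flags did not. In 104 of the 139 genes every probe, and not just 1, was on in all brain arrays.

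Arrays outside the comparison gave values that the rule had not used. In the 2-year-old male, 139, 138 and 136 of the brain-only genes were on in cerebellum, hypothalamus and cortex of 1 animal. In the same male 7 were on in liver, 10 in spleen, 12 in bone marrow and between 2 and 5 on the 8 technical repeats of kidney. Of the 139 genes, 134 were higher in each of the 3 adult brain regions than in every adult organ, and 98 met the full rule. This male was raised in part at another site on another feed, and all 2-year arrays lay on 2 slides of their own, so age, housing and slide cannot be told apart there. The gonads stood between the sides. Testis had between 30 and 44 brain-only genes on over its 5 arrays and ovary between 21 and 74 over its 4. The ovary with the most, 74, was that of the 2-month female, followed by the 1-week female with 71, the 4-week female with 56 and the 4-month female with 21. The share of all genes detected fell in the same order on these 4 arrays, from 74.7% over 72.9% and 68.3% to 63.9%, and its part in the counts was not tested. On every testis array 13 of the genes were on, KCNA1, RLBP1 and the ubiquitin ligase gene RNF182 among them, and on every ovary array 16, INSM1 and NXPH1 among them. The other end was formed by 41 genes that were on in neither gonad at any age, such as GAD2, SLC32A1, MAP2, SLC17A6 and ZIC1.

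**Figure D1:**
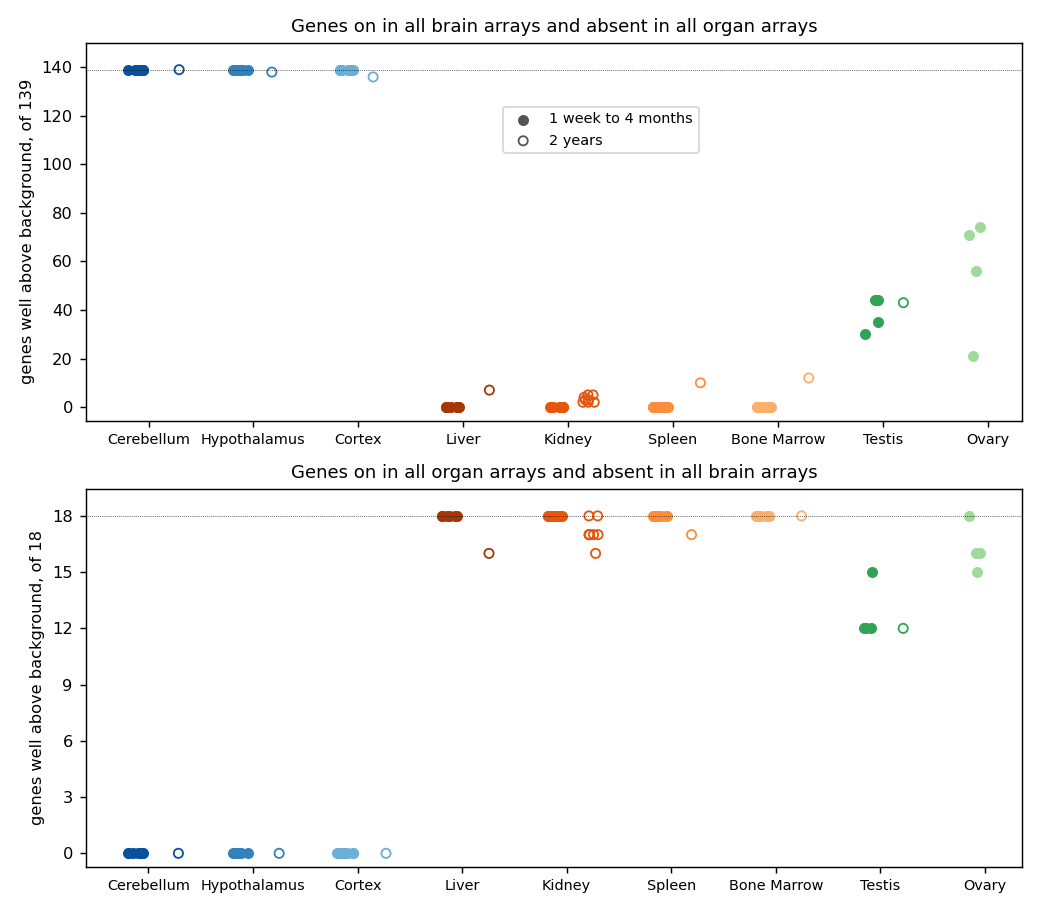
Number of genes of each set that were well above background on each array, for the 139 brain-only genes (upper panel) and the 18 organ-only genes (lower panel). Filled points are samples from 1 week to 4 months, which defined the sets in the 7 tissues from cerebellum to bone marrow, and open points are the 2-year-old male. Testis and ovary arrays, which the rule did not use, had 21 to 74 brain-only genes on.

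Being on in all 3 regions did not mean an equal level. Of the 139 brain-only genes, 72 (51.8%) differed at least 2-fold between 2 regions with an adjusted p below 0.05 in limma. The same held for 14.8% of all genes and for 17.8% of the 12320 genes that were on in all brain arrays. Cerebellum was higher than both other regions in 12 brain-only genes and lower than both in 25, beside 2.93% and 2.80% of all genes. Hypothalamus was higher than both in 9 and lower in 2, beside 1.30% and 0.519%, and cortex was higher in 6 and lower in 3, beside 1.64% and 0.468%. Cerebellum was thus the region most often apart over all genes as well.

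The cerebellar group was led by transcription factors. ZIC1, a zinc-finger factor of cerebellar granule cells, measured 10.88 ± 0.30 (SD, n = 8) in cerebellum, 7.03 ± 1.14 in hypothalamus and 4.74 ± 0.34 in cortex. The 8 cerebellar samples lay above all others, and the difference from cortex was 6.14 log2 units (SE 0.25, adjusted p = 1.1e-27). ZIC5 exceeded hypothalamus by 4.33 and cortex by 4.68 log2 units, and INSM1, a factor of neuroendocrine and newborn neurons, by 3.94 and 4.25. C7orf16 followed with 3.54 and 4.28 log2 units. SLC1A6, the glutamate transporter known from Purkinje cells, was on average 5.80 in hypothalamus and 6.33 in cortex, and cerebellum exceeded them by 2.60 and 2.07 log2 units.

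The gene with the widest span in favor of hypothalamus was SLC17A6, the vesicular glutamate transporter 2. Its 8 values had a lowest of 10.29, a median of 11.22 and a highest of 11.89, whereas cortex had 7.27, 8.12 and 8.97 and cerebellum 4.85, 5.17 and 6.39. The 3 regions did not overlap, and hypothalamus exceeded cerebellum by 5.86 log2 units (SE 0.23, adjusted p = 8.7e-29 for the cerebellum minus hypothalamus contrast). SYNDIG1L, related to a synapse differentiation gene, was 10.02 ± 0.32 in hypothalamus, 6.51 ± 0.64 in cerebellum and 6.42 ± 0.56 in cortex. VWC2, a secreted antagonist of bone morphogenetic proteins, was 10.50 ± 0.73, 7.04 ± 0.47 and 9.03 ± 0.23 in the same order. Among genes highest in cortex, 2 transcripts without a symbol had the widest spans over cerebellum, 5.86 and 4.60 log2 units. Of those with a symbol, RLBP1 (11.07 ± 0.50, against 7.97 ± 0.91 in cerebellum) was followed by the adaptor gene SH2D5 (7.68 ± 0.52, against 5.39 ± 0.13), the cadherin CDH10 (8.29 ± 0.20, against 6.26 ± 0.29) and the receptor-transporting protein gene RTP1 (7.77 ± 0.32, against 5.88 ± 0.24). RLBP1 in hypothalamus, 10.58 ± 0.94, was not called different from cortex (adjusted p = 0.29). At the even end, the olfactomedin gene OLFM3 had region means of 5.34, 5.39 and 5.33, and no contrast of it passed the test.

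**Figure D2:**
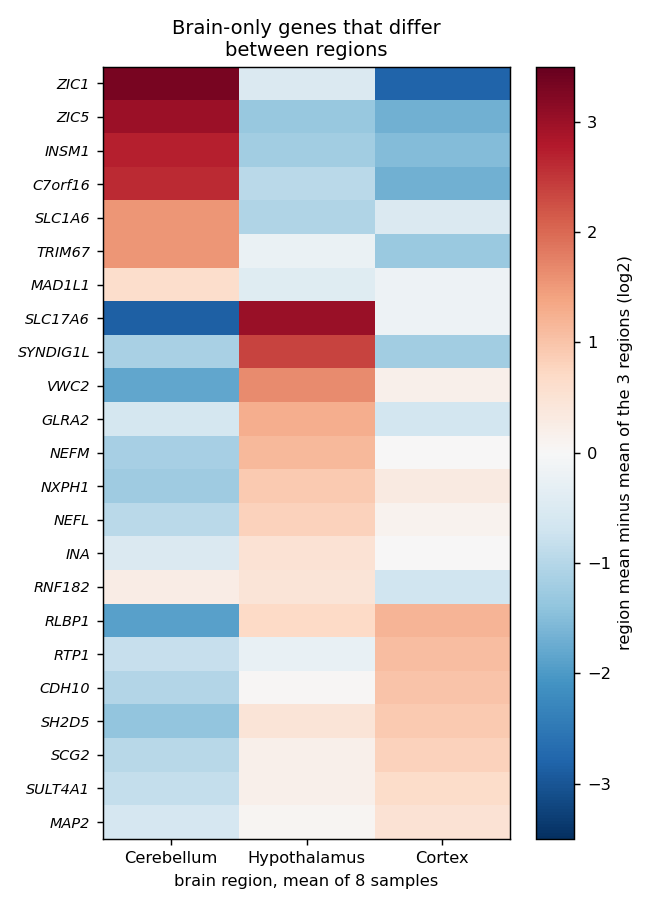
Region means of 23 of the 35 brain-only genes with a symbol that were called different between regions, each as the difference from the mean of the 3 regions in log2 units (color). Rows are ordered by the region with the highest mean, and ZIC1 at the top is 6.14 log2 units higher in cerebellum than in cortex.

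Age was compared between the samples of 1 and 4 weeks and those of 2 and 4 months. The fit took samples of different regions as independent, although tissues shared animals, so its SE and adjusted p can be too small. The median absolute change of the brain-only genes was 0.174 log2 units, against 0.121 for the genes on in all brain arrays and 0.105 for all genes. Averaged over the regions, 5 brain-only genes were higher and 11 lower at the older ages (adjusted p below 0.05, limma), beside 1.96% and 2.48% of all genes, and none of these changes reached 2-fold. Of the genes on in all brain arrays 6.49% were called, a lower share than the 16 of 139 brain-only genes. With an offset of 50 added before the logarithm 20 brain-only genes were higher and 24 lower, beside 1472 of all 23722 genes called in either direction. TRIM67, a neuronal ubiquitin ligase, dropped by 0.79 log2 units (SE 0.11, adjusted p = 4e-06), from a mean of 7.92 to a mean of 7.13 over 12 samples each. Its change was -1.03 in cerebellum, -0.44 in hypothalamus and -0.90 in cortex. CRB1, a cell polarity gene, fell by 0.72 log2 units (adjusted p = 0.025) and the neurexophilin gene NXPH1 by 0.45 (adjusted p = 0.047). BCAN rose by 0.57 log2 units (SE 0.12, adjusted p = 0.0031), MAD1L1, a mitotic checkpoint gene, by 0.77 (adjusted p = 0.00089) and RLBP1 by 0.76 (adjusted p = 0.041). With slide as a block in the fit, 2 brain-only genes were higher and 3 lower, beside 453 of all 23722 genes called in either direction. BCAN, MAD1L1, TRIM67 and CRB1 kept an adjusted p below 0.05 in that fit, and RLBP1 (0.09) and NXPH1 (0.15) did not.

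Among all genes higher in the brain regions, the 12 with the widest gap between the lowest brain sample and the highest organ sample were mostly of neuronal or glial function. FBXL16, an F-box protein of neurons, had a lowest, median and highest value of 12.47, 13.53 and 14.94 in brain and of 0.99, 3.35 and 4.22 in the organs. The difference was 10.51 log2 units (SE 0.11, adjusted p = 4.3e-59), and only 1 of the 32 organ arrays had a probe above background, so the organ level lies near the background and the fold is not exact. TMEM130, a membrane protein, differed by 10.19 log2 units and was on in 5 organ arrays. CAMK2N2, an inhibitor of the synaptic kinase CaMKII, lay between 12.16 and 13.17 in brain and between 3.38 and 4.40 in the organs, a 499-fold difference with 29 of 32 organ arrays above background. FAIM2, an inhibitor of apoptosis in neurons, was 697-fold higher and RTN1, a reticulon of the endoplasmic reticulum, 261-fold. GFAP, the intermediate filament of astrocytes, measured 12.71 ± 0.77 (SD, n = 24) in brain and 3.36 ± 0.56 (SD, n = 32) in the organs, where 2 arrays were above background. SLC12A5, the neuronal chloride exporter KCC2, differed by 7.70 log2 units. INA, KCNA1 and SULT4A1 were brain-only genes as well.

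**Figure D3:**
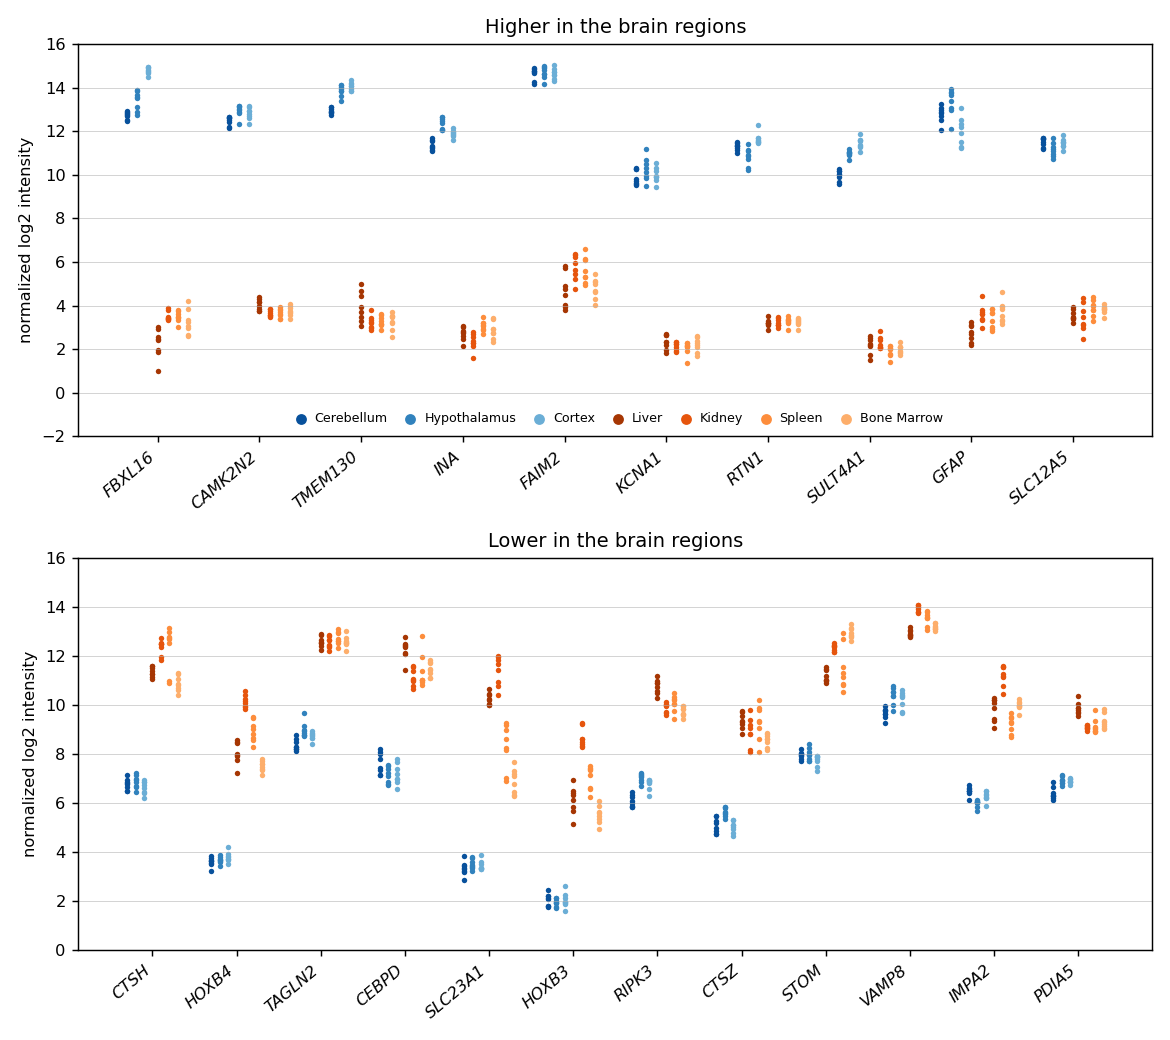
Normalized log2 intensity of each of the 56 samples, colored by tissue, for 10 of the 12 genes with the widest gap among those higher (upper panel) and the 12 among those lower (lower panel) in the brain regions. In no gene does a brain sample reach an organ sample, and the gaps are wider in the upper panel, where FBXL16 differs by 10.51 log2 units.

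In the neuronal gene lists no member was called lower in the brain regions. Counts of list members stand beside 13.4% of all genes called higher and 13.6% called lower, and a difference is not exact where few organ arrays were above background. Of 29 measured genes of synaptic vesicles and release, 24 were called higher and 5 were not called, with a median difference of 4.04 log2 units and medians from 3.61 to 4.53 within single slides. The members followed the steps of release. SYT1, the calcium sensor, differed by 10.35 log2 units (SE 0.18), the priming factor UNC13A by 8.45, the vesicle protein gene SYP by 4.09 and the fusion proteins STX1A and VAMP2 by 5.23 and 4.04. SYT1 was on in 4 of the 8 liver arrays, where it lay between 1.43 and 6.13, and in no kidney, spleen or bone marrow array. UNC13A was on in 1 organ array. SLC17A7, the vesicular glutamate transporter 1, was not called (0.86 log2 units), and SYN3 (-0.14) was detected on all 56 arrays. Of 21 genes of the neuronal cytoskeleton, 19 were higher, among them GAP43 of growth cones (8.62 log2 units, on in 4 organ arrays) and MAPT, the tau protein (5.61), and the median was 3.33.

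Receptor and channel lists held more genes that were not called. Of 29 genes of glutamate receptors and their scaffolds, 22 were higher (median 2.57 log2 units), led by the kinase CAMK2A with 7.25 and the AMPA receptor subunit GRIA2 with 6.90 (on in 8 organ arrays). The metabotropic receptor GRM7, with 4.33 in brain and 4.36 in the organs, was not called. Of 24 genes of GABA and glycine transmission 15 were higher (median 1.79), GAD1 and GAD2 among them. The receptor subunit GABRB1 was not well above background on any array of either side. Of 30 voltage-gated channel genes 20 were higher (median 2.11), with the sodium channel genes SCN2B and SCN2A at 7.11 and 6.83 log2 units (the latter on in 1 organ array), while the calcium channel CACNA1C differed by 0.08 and was on in 5 arrays of each side. Of 29 adhesion genes 20 were higher (median 2.82), led by CNTN1, a contactin of axons, with 7.28 (on in 3 organ arrays) and NRXN2, a presynaptic neurexin, with 6.98 log2 units.

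The list of neuronal RNA-binding proteins and transcription factors had 18 of 24 genes higher and a median of 2.42 log2 units, and its leading member was uneven between regions. NEUROD2, a factor of excitatory neurons, measured 13.27 ± 0.26 (SD, n = 8) in cerebellum and 11.92 ± 0.28 in cortex but 5.08 ± 1.13 in hypothalamus, where 6 of 8 arrays were above background. ZIC2 differed by 6.18 log2 units from the organs, where 8 arrays were above background.

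Glial lists were split. Of 18 astrocyte genes 14 were higher and 1 lower, with a median of 2.99 log2 units. Beside GFAP, the water channel AQP4 differed by 8.63 and the fatty acid-binding protein FABP7 by 7.72 log2 units, with 2 and 4 organ arrays above background. ALDH1L1, a folate enzyme used as an astrocyte marker, was the exception, with 8.62 in brain against 9.71 in the organs (-1.08, adjusted p = 2.5e-09). Its organ samples ran from 6.56 to 13.30, on both sides of the brain samples (7.97 to 9.09). It was not lower in all 12 contrasts. Of 18 myelin and oligodendrocyte genes 9 were higher, 1 was lower and 8 were not called, and the median was 0.71 log2 units. MBP, myelin basic protein, was at 15.96 in brain and 6.85 in the organs, and a probe of it was saturated on 22 arrays, so its difference of 9.10 log2 units is a lower limit. ASPA, which breaks down N-acetylaspartate in oligodendrocytes, was lower in brain (-1.05, adjusted p = 1.6e-08), but with an offset of 50 its difference was -0.68 and not called. The organ samples of ASPA ran from 3.68 to 9.72 and overlapped the brain samples (3.76 to 6.62).

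Microglia, the macrophages of the brain, share most of their markers with macrophages of liver, spleen and bone marrow. Of 18 measured microglia genes 1 was higher, 6 were lower and 11 were not called, with a median of -0.89 log2 units. The higher one was P2RY12, a purine receptor of resting microglia, with 5.47 ± 0.33 (SD, n = 8) in hypothalamus and 4.76 ± 0.35 in cortex. In cerebellum it was 3.43 ± 0.31 and above background on no array, and with an offset of 50 its difference of 0.41 was not called. C1QA, a complement subunit of macrophages, differed by -3.16 log2 units, and spleen had its highest level, 12.78 ± 0.89.

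**Figure D4:**
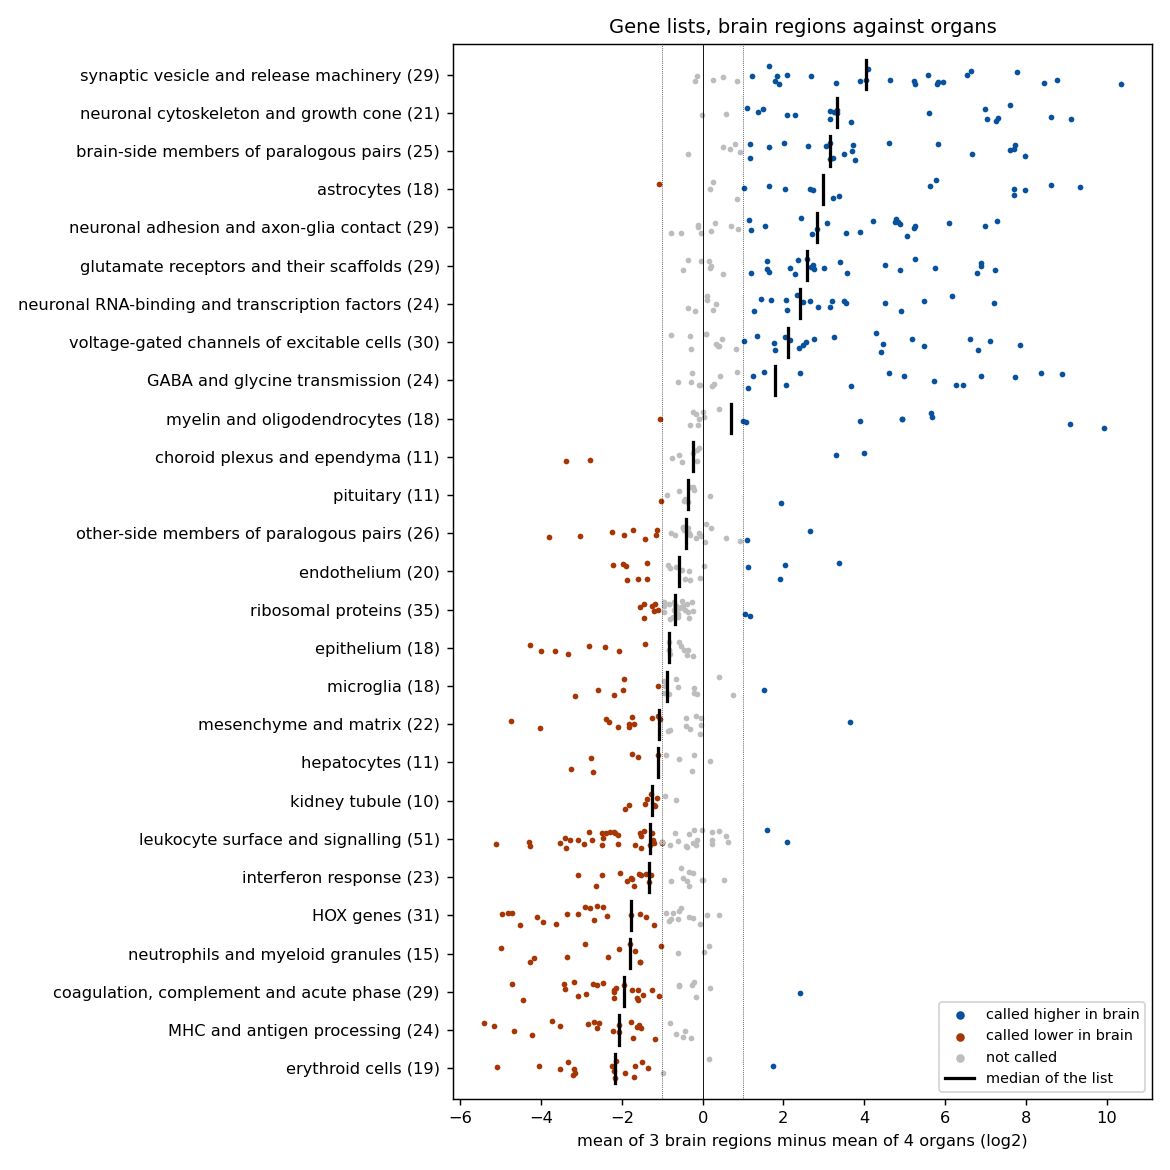
Difference between the mean of the 3 brain regions and the mean of the 4 organs for each measured member of the 27 gene lists, with the number of measured members in parentheses. Points are genes, colored by call, black bars are list medians and dotted lines mark 2-fold. The synaptic vesicle list has the highest median (4.04 log2 units) and the erythroid list the lowest (-2.17).

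Paralogous pairs, in which the first member is known from nerve cells and the second from other tissues, could be compared in 20 of 26 pairs fixed for the purpose. The first member was called higher in 15 pairs and lower in none. The second member was called lower in 6, higher in 2 and not called in the others, and in 6 pairs the members went opposite ways. ALDOC, the brain form of the glycolytic enzyme aldolase, was 15.58 ± 0.25 (SD, n = 8) in cerebellum, 15.41 ± 0.17 in hypothalamus and 15.09 ± 0.11 in cortex, against 6.00 ± 0.59 in liver and 10.26 ± 0.95 in bone marrow. A probe of ALDOC was saturated on 2 arrays.

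AP3B2 and AP3B1, neuronal and ubiquitous subunits of the AP-3 complex that sorts vesicle cargo, differed by 7.73 and -1.95 log2 units, and both passed in all 12 contrasts, in opposite directions. The creatine kinases CKB and CKM differed by 3.77 and -2.25, the carnitine palmitoyltransferases CPT1C and CPT1A by 3.16 and -1.43, and the chromatin remodelling subunits ACTL6B and ACTL6A by 2.01 and -1.16. A probe of CKB was saturated on 9 arrays, and ACTL6B was on in no organ array. CKM, the muscle form, ranged from 3.37 to 15.28 among the 8 bone marrow samples. For the kinesin motors KIF5C and KIF5B the differences were 7.62 and 0.57, and for the enolases ENO2 and ENO1 3.73 and 0.05. In the RNA-binding pair ELAVL1 alone gave a measured difference. ELAVL1, the ubiquitous member, was 2.66 log2 units higher in the brain regions and passed in every contrast. The neuronal member ELAVL3 was above background on 1 brain array and no organ array, so its difference gives no direction.

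**Figure D5:**
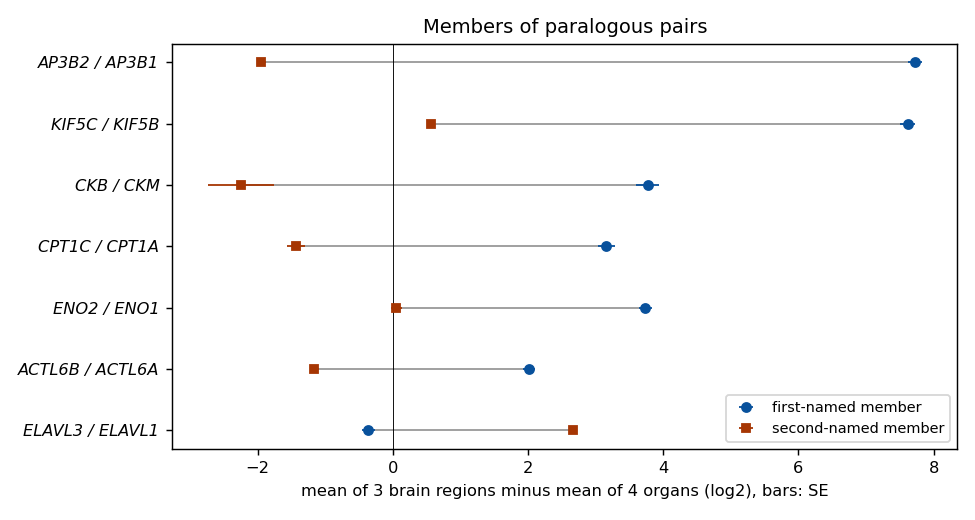
Difference between brain regions and organs for both members of 7 of the 20 paralogous pairs in log2 units, with the first-named member as a circle, the second-named as a square and bars for the standard error. The first-named member lies above the second in the first 6 pairs, with AP3B2 and AP3B1 at 7.73 and -1.95. ELAVL3, near background on both sides, and ELAVL1 lie at -0.36 and 2.66.

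Of the 18 organ-only genes 7 had a symbol. HOXB3 had a lowest, median and highest value of 4.93, 6.52 and 9.27 over the 32 organ samples and of 1.57, 1.97 and 2.59 over the 24 brain samples, at least 21.8-fold higher in the organs. Kidney was highest with 8.64 ± 0.39 (SD, n = 8). TTC36, a tetratricopeptide protein, was at least 26.3-fold higher in the organs, with 9.73 ± 0.18 in liver and 3.26 on average in brain. Its means were 8.34 in bone marrow, 7.52 in kidney and 6.31 in spleen. LCK, the kinase of the T cell receptor, was at least 18.7-fold higher, and its level ranged from 5.63 ± 0.84 in kidney to 9.63 ± 1.24 in spleen. The water channel AQP1 was at least 10.4-fold higher, SFT2D2 of Golgi transport 10.7-fold, the interferon-inducible SAMD9 6.99-fold and the zinc-finger gene ZNF217 3.25-fold. With an offset of 50 the differences of SAMD9 and ZNF217 were -0.99 and -0.52 log2 units, both under the 2-fold limit. None of the 18 genes was on in a brain region of the 2-year-old male, and 14 were on in all of his organ arrays. All 18 were on in at least 1 ovary array and 15 in at least 1 testis array. On single testis arrays 66.7% to 83.3% of the 18 were on, beside 64.4% to 67.7% of all genes. On single ovary arrays 83.3% to 100% were on, beside 63.9% to 74.7% of all genes. The testis share was thus mostly near that of all genes.

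The 12 genes with the widest gap below the organs were detected in brain, with 2 exceptions. CTSH, the lysosomal protease cathepsin H, lay between 6.19 and 7.21 in brain and between 10.41 and 13.13 in the organs, a 31.4-fold difference (adjusted p = 1.8e-42). A second cathepsin, CTSZ, was 13.7-fold lower in brain. TAGLN2, an actin-binding protein, was the most even in the organs, 12.60 ± 0.23 (SD, n = 32) against 8.69 ± 0.34 in brain. VAMP8, a fusion protein of lysosomes and granules, measured 10.07 ± 0.43 in brain and 13.38 ± 0.41 in the organs, and the cell death kinase RIPK3 6.62 ± 0.45 and 10.09 ± 0.47. CEBPD, a transcription factor of the acute phase response, differed by -4.24 log2 units, the membrane protein gene STOM by -4.10, the inositol phosphatase gene IMPA2 by -3.80 and the protein disulfide isomerase gene PDIA5 by -2.61. The exceptions were HOXB3, absent in brain, and SLC23A1, a vitamin C transporter of epithelia, which was on in 4 of 24 brain arrays at 3.42 ± 0.23 and ranged from 6.28 to 12.00 in the organs. HOXB4 completed the group with 3.69 ± 0.19 against 8.65 ± 1.07.

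HOX genes, which give body segments their identity, were called in 1 direction. Of 31 measured genes 19 were called lower and none higher, with a median of -1.77 log2 units, and 7 were lower in all 12 contrasts. Those 7 were HOXA5, HOXA7, HOXB3, HOXB4, HOXB5, HOXB6 and HOXD4, with differences from -2.78 (HOXA7) to -4.96 (HOXB4). HOXA5 and HOXA7 were on in no brain array.

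Immune lists had most of their called members lower. Of 24 genes of the major histocompatibility complex (MHC) and antigen processing 19 were lower and none was higher, with a median of -2.07 log2 units, and 13 were lower in all 12 contrasts. SLA-DRA, a class II chain, averaged 6.80 in cerebellum, 6.90 in hypothalamus and 6.86 in cortex. These means pool the ages, and over the brain samples SLA-DRA averaged 5.73 at 1 and 4 weeks and 7.97 at 2 and 4 months. Organ means ran from 11.00 ± 0.66 (SD, n = 8) in liver to 13.90 ± 0.93 in spleen. B2M, the light chain of class I molecules, differed by -2.07. The SLA genes have close relatives in the same cluster, and their probes may share signal. Of 51 leukocyte genes 31 were lower and 2 higher, with a median of -1.30. The macrophage receptor CD163 differed by -5.12 log2 units (SE 0.17), the MHC chaperone CD74 by -4.30 and the T cell receptor subunit CD3E by -3.53. The exceptions were IL10RA, an interleukin receptor chain, and CD38 (2.10). Over the brain samples CD74 averaged 4.25 at 1 and 4 weeks and 6.04 at 2 and 4 months. Of 23 interferon response genes 13 were lower and none higher (median -1.33), with the antiviral genes RSAD2 and IFIT1 at -3.08 and -2.63.

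The matrix and vessel lists had members on both sides. Of 22 mesenchyme and matrix genes 12 were lower, with the collagens COL3A1 and COL1A2 at -4.74 and -4.02 log2 units, and 1 was higher. That was THY1, a surface protein of neurons as well as of fibroblasts, with 11.58 in brain and 7.92 in the organs. The differences pool the ages. Over the brain samples COL1A2 averaged 8.73 at 1 and 4 weeks and 6.41 at 2 and 4 months, and COL3A1 averaged 6.87 and 5.48. Of 20 endothelial genes 7 were lower and 4 higher. The higher ones were MFSD2A (3.38), the lipid transporter of the blood-brain barrier, the tight junction gene CLDN5 (2.04), the thyroid hormone transporter SLCO1C1 (1.91) and the efflux pump ABCB1 (1.12). With an offset of 50 SLCO1C1 (0.77) and ABCB1 (0.68) were not called. ENG and KDR, receptors of vascular growth signals, were lower (-2.21 and -1.97). MFSD2A did not separate liver from brain. Liver, with 9.79 ± 1.37 (SD, n = 8), overlapped the brain regions, which ran from 8.45 ± 0.31 in cerebellum to 9.52 ± 0.34 in cortex. CLDN5 was higher in all 12 contrasts.

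Lists that belong to 1 or 2 of the organs were lower on average but rarely in every contrast. Of 29 genes of coagulation, complement and the acute phase 22 were lower and 2 of these in all 12 contrasts. SERPINC1, antithrombin, was above background on no brain array and at least 25.9-fold higher in the organs, where 18 arrays detected it. TF, transferrin, was higher in brain (2.42, adjusted p = 8.5e-13) although liver had its highest level. TF was 12.36 ± 1.17 (SD, n = 8) in hypothalamus, 9.58 ± 1.39 in cortex, 15.96 ± 0.03 in liver, near the top of the scale with a probe saturated on 7 arrays, and 4.51 ± 0.75 in spleen. Over the brain samples TF averaged 10.10 at 1 and 4 weeks and 11.53 at 2 and 4 months. Epithelial genes were lower in 8 of 18, among them CDH1, E-cadherin, with -4.00. Of 19 erythroid genes 16 were lower (median -2.17) and of 15 neutrophil genes 12 (median -1.81), none of either in all 12 contrasts. HBA1, alpha-globin, ranged from 4.17 to 8.41 in brain and measured 5.99 ± 1.30 in kidney and 6.09 ± 1.31 in hypothalamus. SPTB, a spectrin of red cells, was the erythroid exception, with 8.12 ± 0.15 in cerebellum and 9.77 ± 0.64 in bone marrow against 3.27 ± 0.41 in kidney. Ribosomal protein genes were lower in 7 of 35 and higher in 2, beside 13.6% and 13.4% of all genes, with a median of -0.69 against -0.115 over all genes. RPS6 and RPSA differed by -1.56 and -1.46 log2 units, and the exceptions were RPL15 (1.06) and RPS23, above background on no organ array and on 17 brain arrays. RPL15 was not called with median scaling (0.99), nor RPS23 with an offset of 50 (0.27). Hepatocyte and kidney tubule lists had 6 of 11 and 8 of 10 genes lower.

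Markers of tissue that borders the sampled regions were mostly near background. Of 11 genes of choroid plexus and ependyma 2 were higher and 2 lower, near the shares of all genes (13.4% and 13.6%), and the mean level of the list was between 3.67 and 4.88 in the brain samples and between 3.78 and 4.60 in the organ samples. OTX2, a factor of choroid plexus that is also active in cerebellum and midbrain, was 9.45 ± 0.35 (SD, n = 8) in hypothalamus, 7.06 ± 2.03 in cerebellum and 2.28 ± 0.28 in cortex, the last above background on no array. It was also on in all 4 ovary arrays, between 6.73 and 9.80. CCDC153, a gene of cilia, was higher in all 12 contrasts (3.29 log2 units on average, with 2 organ arrays above background). Of 11 pituitary genes 1 was higher and 1 lower, no more than those shares. The higher one was POMC, the precursor of melanocortins (1.95 log2 units). POMC was above background on all 56 arrays and measured 9.89 ± 0.37 in hypothalamus and 9.84 ± 0.13 in cerebellum. The part of neighbouring tissue in these values was not tested.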

How the data were processed

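One-color custom Agilent arrays of minipig tissue were compared. The authors quantified the scans with Agilent Feature Extraction (11.5.1.1 in the submitters' processing notes), and the deposited scanner files give a median pixel intensity per spot, a background-corrected processed intensity and a flag (other) for spots well above background. The authors also deposited a table of normalized log2 values, used as an alternative. The median intensity was corrected with normexp (offset 0) and quantile normalized over all 80 arrays in limma 3.58.1 under R 4.3.3. Between 10 and 590 flagged spots per array were left out. Log2 values were averaged per probe and then per gene. Trailing numbers of spot names were cut, except in RefSeq accessions, and 14 incomplete genes were dropped. Of 10818 genes listed by accession, 2453 matched a symbol in RefSeq annotation of Sscrofa11.1. The array precision is limited by the 8 samples per tissue.

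One limma fit with a mean per tissue gave the contrasts between sides and between regions, and a second fit with tissue by age group gave the change with age. Calls needed a Benjamini-Hochberg adjusted p below 0.05 over all genes and, except for age, a 2-fold difference. The fits were tested on simulated data. Plots were drawn with matplotlib 3.10.9 in Python 3.11.15. The named genes are the 12 with the widest gap and the 12 with the largest bound in each direction, the 2 largest and the smallest differences and the exceptions of each list, the paralogous pairs, and the extremes by region and age. Further members are named as examples of a function, after their values were seen. The samples, the 27 gene lists and the pairs were chosen with earlier results of these data known. Alternatives covered the intensity column, offset, scaling, probes, detection limit, fold limit, slide, pairing by age and sex, and leaving out tissues. Without cross-hybridizing probes was added after seeing the data. Probe sequences were not used here, and some genes that these rules name are not reported here.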

Additional observations from a re-analysis of the deposited data

Results flagged for a closer look

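Single samples that lay apart from the other 7 of their tissue were sought in the genes with the widest gaps and in the named brain-only and organ-only genes, on the side where they were higher. Of 123 combinations of a gene and a tissue, 5 passed the critical value of Dixon's test, and chance gives about 1 in 20. CAMK2N2 in hypothalamus was lowest in the 4-month female, at 12.32 against 12.83 for the next sample. RTN1 in cortex was highest in the 1-week female, at 12.29 against 11.70. CACNG2 was lowest in the 1-week male in cerebellum (8.66, next 9.22) and in hypothalamus (8.23, next 8.84). IMPA2 in bone marrow was lowest in the 4-week female, at 9.56 against 9.92. All of these brain samples remained far above every organ sample.

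SH2D5, a brain-only gene for an adaptor protein, was the member whose change with age differed between the regions by a test of the interaction (adjusted p = 0.047, limma). It changed by 0.93 log2 units in cortex, -0.01 in cerebellum and -0.20 in hypothalamus.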

How the results depend on the processing

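Counts of genes depended most on the fold limit and on the offset added to intensities before the logarithm. The genes higher and lower in the brain regions numbered 1726 and 1722 with an offset of 50, 1456 and 1139 at 4-fold and 7657 and 10943 with no fold limit. Those higher and lower in every contrast numbered 731 and 183, 615 and 98, and 2471 and 1589 under the same settings, and 824 were lower in every contrast without kidney. Brain-only and organ-only genes numbered 45 and 7 with the 95th percentile of the negative controls, 268 and 42 when 1 exception per tissue was allowed, and organ-only genes 11 with the 99th percentile, 6 when every probe had to be on and 33 without kidney. Brain-only genes that differed between regions numbered 42 with the offset, and genes that changed with age in brain 453 with slide as a block. The cause of these shifts was not tested. Processed signals, median scaling, the 56 arrays alone, a filter on dim genes, the median of probes, slide as a block in the tissue fit, adult samples, the deposited log2 table and cross-hybridizing probes left the 4 counts between brain and organs within 1.5 times. Median scaling moved the median of all genes from -0.115 to -0.256 log2 units and split the calls into 3009 higher and 3574 lower.

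Samples of the same age and sex in different tissues were compared as possible pairs. The correlation of their deviations from the tissue means was between -0.269 and 0.468 over 168 such pairs, with a median of 0.153 and 123 above 0.1, against a median of -0.023 for samples of another age or sex. The main fit did not treat the samples as paired, because not every pair exceeded 0.1. Most pairs did, so this limit does not show that the samples were unpaired. Whether they came from the same animal was not tested. With the age-by-sex combination as a replicate block, 3171 genes were higher and 3217 lower, 1272 and 472 in every contrast, and 72 brain-only genes differed between regions. With sex as a block 1060 genes changed with age. A block for sex does not separate animals of different ages, so this count cannot show whether the age result holds with pairing. Of 805 checks of named genes 784 kept their call and direction, and 17 crossed the call limit, most of them with the offset. The 4 that changed sign were differences that were not called: NRXN3 (0.17 with processed signals), IFIH1 (-0.21 with median scaling) and ROBO4 (-0.30 with median scaling and -0.15 with processed signals). No list median changed sign in 351 checks, but 130 of them moved it by more than 1 SD of its values within the 9 slides. The kidney tubule median ran from -1.92 to -0.01 between slides. Signals near the background limit the organ values of brain-only genes, and the folds given as bounds are not strict lower limits.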
